A study of Arabidopsis thaliana with 12 samples.

Results

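The 43 genes described here are nuclear genes of Arabidopsis thaliana for light-harvesting proteins and subunits of both photosystems. They were chosen by gene ID from lists of family members out of 27655 genes in the files, by a rule that uses no measured value but was set with earlier results of these data known. They comprise 15 LHCB genes (the antenna of photosystem II), 6 LHCA genes (the antenna of photosystem I), 12 PSA genes (photosystem I subunits) and 10 PSB genes (photosystem II subunits). Their transcripts were measured by RNA sequencing in whole Col-0 wild-type seedlings after 6 h in liquid half-strength Murashige and Skoog medium with 1.5% sucrose under continuous light at 22 °C. The medium held the vehicle DMSO, or abscisic acid (ABA) at 10 µM, or one of its derivatives at 10 µM, namely 3'-butyl ABA and 3'-propyl ABA. In the derivatives the 3' position of ABA bears a butyl or a propyl group. All groups share genotype, medium, light and duration, and the sample labels give their age as 8 days where the series text has 7 days. Each treatment has 3 libraries, 12 in all, and nothing in the labels says that they came from separate cultures, so p-values measure the spread between these libraries. Whole seedlings hold green and non-green cells together, and in such bulk samples fewer cells of a type and less RNA per cell cannot be told apart.

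Light-harvesting complexes are membrane proteins that bind chlorophyll and carotenoids and pass excitation energy to the reaction centres. LHCB1, LHCB2 and LHCB3 form the trimers of the major antenna of photosystem II, while LHCB4, LHCB5 and LHCB6 are the minor antenna proteins that link these trimers to the core. LHCA proteins form a belt along one side of photosystem I. The PSA and PSB genes considered here encode subunits that are made in the cytosol and imported into the chloroplast, where the reaction centre proteins themselves are encoded. ABA is the plant hormone of drought responses and seed dormancy, and the comparisons ask how these genes respond to it and to its 3'-alkyl derivatives.

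The promoter windows of 5 LHCB genes are shown because close copies within this family took different courses, and each window lies outside every other annotated gene. Other copies with such windows, LHCB1.1, LHCB2.1 and LHCB2.2 among them, are not printed. Each window is the 250 bases before the annotated transcript start, read from the RefSeq genome TAIR10.1 on the gene's own strand, 5′ to 3′. Positions are chr1:10473503-10473752 (minus strand) for LHCB1.2, chr1:10477635-10477884 (plus strand) for LHCB1.3, chr2:14524357-14524606 (plus strand) for LHCB1.4, chr2:14523569-14523818 (minus strand) for LHCB1.5 and chr3:10255656-10255905 (plus strand) for LHCB2.3. Capitals mark matches, on either strand, to 5 motifs searched: the G-box CACGTG, the core of the ABA-responsive element ACGTGNC, the I-box GATAAG, the CCA1-type element AANAATCT and the element CCAATC.
LHCB1.2: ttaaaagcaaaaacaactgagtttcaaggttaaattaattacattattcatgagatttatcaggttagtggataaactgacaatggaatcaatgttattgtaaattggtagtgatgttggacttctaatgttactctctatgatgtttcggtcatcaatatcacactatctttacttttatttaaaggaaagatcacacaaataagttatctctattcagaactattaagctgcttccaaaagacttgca
LHCB1.3: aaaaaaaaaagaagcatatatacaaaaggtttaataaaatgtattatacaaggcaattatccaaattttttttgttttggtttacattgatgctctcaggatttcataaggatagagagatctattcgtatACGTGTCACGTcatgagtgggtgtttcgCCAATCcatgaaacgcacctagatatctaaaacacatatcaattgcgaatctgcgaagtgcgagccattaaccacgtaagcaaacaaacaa
LHCB1.4: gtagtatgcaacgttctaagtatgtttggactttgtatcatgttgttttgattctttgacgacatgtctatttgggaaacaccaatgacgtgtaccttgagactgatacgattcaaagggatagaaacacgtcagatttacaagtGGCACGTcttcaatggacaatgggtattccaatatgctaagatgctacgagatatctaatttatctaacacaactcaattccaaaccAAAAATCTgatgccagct
LHCB1.5: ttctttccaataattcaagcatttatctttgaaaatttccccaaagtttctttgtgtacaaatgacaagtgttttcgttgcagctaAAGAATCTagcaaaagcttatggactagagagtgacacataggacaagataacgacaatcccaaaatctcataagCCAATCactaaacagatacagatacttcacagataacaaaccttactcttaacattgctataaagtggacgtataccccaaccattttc
LHCB2.3: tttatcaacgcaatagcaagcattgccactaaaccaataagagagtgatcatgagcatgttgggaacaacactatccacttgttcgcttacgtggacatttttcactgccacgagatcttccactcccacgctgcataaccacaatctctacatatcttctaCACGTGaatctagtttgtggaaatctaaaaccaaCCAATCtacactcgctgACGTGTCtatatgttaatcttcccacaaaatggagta
The LHCB1.2 window held none of the 5 motifs. In the LHCB1.3 window a pair of ACGTGNC matches on opposite strands, beginning 119 and 115 bases before the start, overlap in 1 run of capitals, and CCAATC follows 91 bases before the start. LHCB1.4 had ACGTGNC at 105 bases and AANAATCT at 18 bases, and LHCB1.5 had AANAATCT at 164 bases and CCAATC at 89 bases. LHCB2.3 had the G-box at 88 bases, CCAATC at 54 bases and ACGTGNC at 37 bases. Of the windows not printed, LHCB1.1 had ACGTGNC at 106 bases and AANAATCT at 78 bases. LHCB2.1 had GATAAG at 221 bases and CCAATC at 59 bases, and LHCB2.2 had CCAATC at 53 bases. Over all 43 windows, ACGTGNC was present in 14 (32.6%), against 9.91% of 19400 promoter windows of the same length. CACGTG was present in 9 (20.9%, against 7.73%), and all 9 of these also held ACGTGNC. The I-box GATAAG was in 9 (20.9%, against 12.3%), AANAATCT in 10 (23.3%, against 13.4%) and CCAATC in 11 (25.6%, against 10.5%). The CCAATC matches lay in 7 LHCB, 3 LHCA and 1 PSB windows and in 0 of the 12 PSA windows. A match describes letters only, 16 of the 43 windows held none of the 5 motifs, and 19 windows overlap another annotated gene.

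These genes were among the most abundant messages in the seedlings. Levels are in TPM, transcript counts scaled to a fixed library total, which are also scaled by transcript length and can therefore be compared between genes. Of the 100 genes with the highest mean TPM, 28 belonged to the 43, and all 43 passed the filter of a mean of at least 1 TPM. LHCB1.3 had the highest mean of any gene and was the top gene in 10 of the 12 libraries, LHCB1.5 ranked 2, LHCB1.2 ranked 4 and PSBR ranked 5. At the other end, LHCB7 ranked 11635 and LHCB4.3 ranked 15968. The 43 genes summed to 7.09%, 7.27% and 6.37% of all TPM in the DMSO libraries, 8.28%, 8.54% and 9.91% with ABA, 6.65%, 5.58% and 4.83% with 3'-propyl ABA, and 9.81%, 10.27% and 10.2% with 3'-butyl ABA. Every ABA and 3'-butyl ABA library was above every DMSO library, whereas the 3'-propyl ABA libraries overlapped the DMSO libraries. The means were 6.91 ± 0.479%, 8.91 ± 0.876%, 5.69 ± 0.919% and 10.09 ± 0.246% in the same order (SD, n = 3). These sums are a description, with no test.

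**Figure D1:**
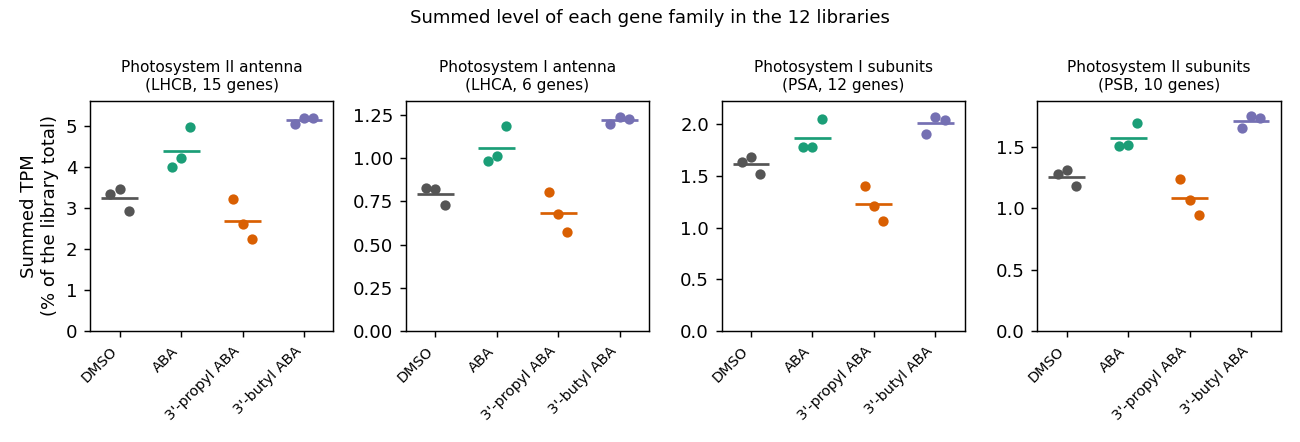
Summed TPM of the LHCB, LHCA, PSA and PSB genes as a percentage of the library total (vertical axes, each from 0) in the 4 treatments; each point is 1 library and each line the mean of 3. The LHCB sum averaged 3.25% with DMSO, 4.41% with ABA, 2.70% with 3'-propyl ABA and 5.15% with 3'-butyl ABA, and the other families took the same order.

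The order of the treatments was the same in each of the 4 families, as the plot of family sums shows. LHCA genes summed to 0.793% with DMSO, 1.06% with ABA, 0.684% with 3'-propyl ABA and 1.22% with 3'-butyl ABA. The PSA sums were 1.61%, 1.87%, 1.23% and 2.01%, and the PSB sums were 1.26%, 1.57%, 1.08% and 1.71%, in that order of treatments. Libraries of 1 treatment differed from each other across nearly the whole set. DMSO replicate 3 was the lowest DMSO library for 39 of the 43 genes, ABA replicate 3 was the highest ABA library for 42, 3'-propyl ABA replicate 1 was the highest of its group for 41 and 3'-propyl ABA replicate 3 the lowest for 42. Markers of root cells also differed between libraries. The summed TPM of 7 root hair genes was 172, 73.5 and 62.6 in DMSO replicates 1 to 3, 102, 52.9 and 30.1 with ABA, 49.8, 91.4 and 65.5 with 3'-propyl ABA, and 142, 76.4 and 150.3 with 3'-butyl ABA. Summed TPM of 8 endodermis genes ranged from 54.7 to 152 with DMSO, 44.4 to 113 with ABA, 37.8 to 66.1 with 3'-propyl ABA and 123 to 163 with 3'-butyl ABA. Among leaf markers, 5 guard cell and stomatal genes summed to 342.5 to 354 TPM with DMSO, 79.8 to 109.8 with ABA, 23.9 to 30.8 with 3'-propyl ABA and 49.5 to 58.2 with 3'-butyl ABA, while 3 shoot epidermis genes summed to 673 to 824, 580.2 to 868, 842 to 881 and 569.9 to 623. Most of the guard cell sum with DMSO came from AT1G22690, at a mean of 298.6 TPM with DMSO, 60.6 with ABA, 11.2 with 3'-propyl ABA and 26.1 with 3'-butyl ABA. The other 4 genes of that list summed to 44.2 to 53.3, 27.9 to 30.6, 15.1 to 16.4 and 22.5 to 30.2 TPM in the same order. None of these 23 markers was at 0 in a whole group, and their part in the results was not tested.

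Against DMSO, ABA and 3'-butyl ABA raised the photosystem genes and 3'-propyl ABA lowered more of them than it raised. With ABA 26 of the 43 genes rose, 0 fell and 17 were not called, with a median log2 fold change of 0.35, against 22.0% of all 19528 genes tested that rose, 24.7% that fell and a median of -0.03. With 3'-butyl ABA 37 rose, 0 fell and 6 were not called, with a median of 0.51, against 25.1% and 25.6% of all genes and a median of 0.00. With 3'-propyl ABA 24 fell, 4 rose and 15 were not called, with a median of -0.33, against 38.5% and 27.5% of all genes and a median of -0.12. All 3 libraries lay above all DMSO libraries for 31 genes with ABA (23.9% of all genes) and 39 with 3'-butyl ABA (29.4%), and for 3 with 3'-propyl ABA (28.6%). They lay below them for 20 genes with 3'-propyl ABA (40.4%), 0 with ABA (29.2%) and 0 with 3'-butyl ABA (31.2%). At an unadjusted p under 0.05, too, 0 of the 43 fell with ABA (28.0% of all genes) or 3'-butyl ABA (28.4%). Calls are from limma's moderated test on log2(TPM + 1), fitted to all 12 libraries, with Benjamini-Hochberg adjustment over the 19528 genes and a threshold of 0.05, and fold changes are differences on that scale with their standard error (SE). The 3 comparisons share the DMSO libraries. Changes were small for most genes: 1 gene with ABA (6.79% of all genes), 1 with 3'-propyl ABA (11.3%) and 4 with 3'-butyl ABA (7.91%) were called higher by at least 2-fold. The ABA count rested in part on single libraries, since 13 genes rose without DMSO replicate 3 and 17 without ABA replicate 3. Median-of-ratios scaling moved the median of all genes with 3'-propyl ABA from -0.12 to 0.01 and that of the 43 to -0.19, and 18 then fell and 6 rose. Shares of all genes called without a library or with this scaling are not given here. These alternative counts therefore cannot be set against a background. The median of each family kept its sign in each comparison with this scaling and with quantile normalization.

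**Figure D2:**
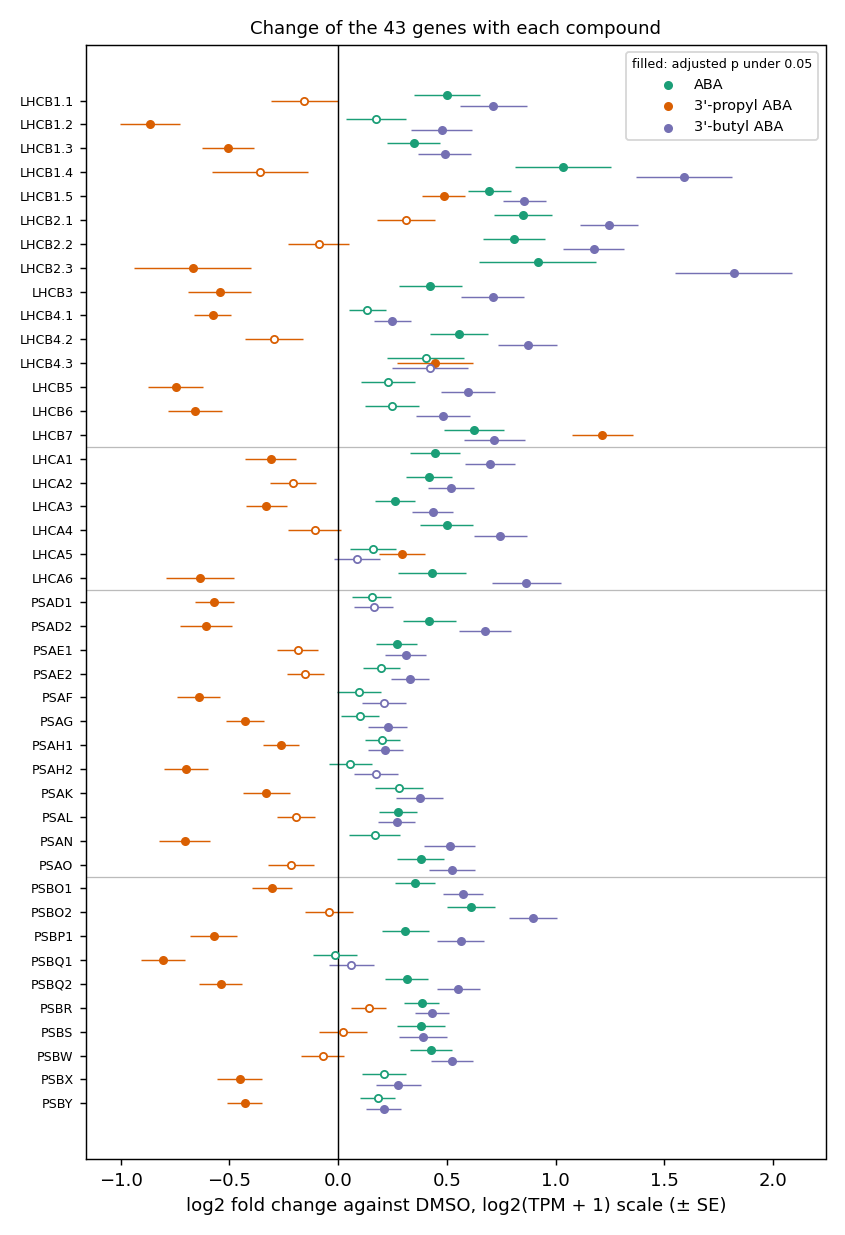
Log2 fold change against DMSO on the log2(TPM + 1) scale (horizontal axis) of each of the 43 genes (vertical axis, families separated by grey lines) with each compound; bars are ± SE and filled points have an adjusted p under 0.05. Points for 3'-propyl ABA lie left of 0 for 36 genes, and those for 3'-butyl ABA lie right of 0 for all 43.

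The plot of changes against DMSO separates the genes by their calls. Higher with ABA and 3'-butyl ABA but not called with 3'-propyl ABA were 14 genes, namely LHCB1.1, LHCB1.4, LHCB2.1, LHCB2.2, LHCB4.2, LHCA2, LHCA4, PSAE1, PSAL, PSAO, PSBO2, PSBR, PSBS and PSBW. Called in opposite directions were 20 genes, all higher with 3'-butyl ABA and lower with 3'-propyl ABA. Of these 20, ABA raised 10 (LHCB1.3, LHCB2.3, LHCB3, LHCA1, LHCA3, LHCA6, PSAD2, PSBO1, PSBP1 and PSBQ2), and the other 10 were not called with ABA (LHCB1.2, LHCB4.1, LHCB5, LHCB6, PSAG, PSAH1, PSAK, PSAN, PSBX and PSBY). These counts depended on single libraries and on scaling. The 20 became 12 without DMSO replicate 1, 13 without DMSO replicate 3 and 11 with median-of-ratios scaling. Genes higher with ABA and 3'-butyl ABA and lower with 3'-propyl ABA, 10 in the full fit, numbered 6 without DMSO replicate 1, 5 without DMSO replicate 2, 3 without DMSO replicate 3, 3 without ABA replicate 3, 21 without 3'-propyl ABA replicate 1, 6 without 3'-propyl ABA replicate 2 and 6 with median-of-ratios or quantile scaling. All 6 with median-of-ratios scaling were among the 10, but only 3 of the 6 with quantile normalization were. LHCA1 and PSBO1 were the 2 of the 10 that kept these calls without DMSO replicate 3. Lower with 3'-propyl ABA and not called with the others were 4 genes (PSAD1, PSAF, PSAH2 and PSBQ1). All 3 compounds raised LHCB1.5 and LHCB7. LHCB4.3 and LHCA5 rose with 3'-propyl ABA and were not called with the others, and PSAE2 rose with 3'-butyl ABA and was not called with the others. Calls that differ between compounds are no test of the difference between compounds, which is given per gene below.

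The LHCB1 genes, which encode the main protein of the photosystem II antenna, split by copy. LHCB1.4 (AT2G34430, chr2:14524607-14525918) was at 677, 594 and 492 TPM with DMSO, 993, 1133 and 1522 with ABA, 640.1, 429.5 and 339 with 3'-propyl ABA, and 1811, 1706 and 1757 with 3'-butyl ABA. All ABA and 3'-butyl ABA libraries lay above the DMSO libraries, and the 3'-propyl ABA libraries overlapped them. The log2 fold change was 1.04 ± 0.22 with ABA (adjusted p = 0.0029), 1.59 ± 0.22 with 3'-butyl ABA (adjusted p = 0.000153) and -0.36 ± 0.22 with 3'-propyl ABA (adjusted p = 0.172, not called; 0.013 without 3'-propyl ABA replicate 1). Its head-to-head neighbour LHCB1.5 (AT2G34420, chr2:14522524-14523568), whose start lies 1038 bases away, was at 5341, 5341 and 4738 TPM with DMSO, 7422, 8286 and 9338 with ABA, 8232, 7063 and 6373 with 3'-propyl ABA, and 9218, 9279 and 9386 with 3'-butyl ABA. Here every library of all 3 compounds was above every DMSO library, with changes of 0.70 ± 0.10, 0.48 ± 0.10 and 0.86 ± 0.10 for ABA, the propyl and the butyl compound (adjusted p = 0.000111, 0.000892 and 1.85e-05). LHCB1.2 (AT1G29910, chr1:10472280-10473502) was at 4277, 4357 and 3639.5 TPM with DMSO, 4289, 4273 and 5334 with ABA, 2746, 2273 and 1794 with 3'-propyl ABA, and 5502, 5863 and 5656 with 3'-butyl ABA. Its 3'-propyl ABA libraries were the lowest and its 3'-butyl ABA libraries the highest of the 12, while ABA overlapped DMSO. It fell by 0.87 ± 0.14 with 3'-propyl ABA (adjusted p = 0.000151) and rose by 0.48 ± 0.14 with 3'-butyl ABA (adjusted p = 0.0131). LHCB1.3 (AT1G29930, chr1:10477885-10479114) was at 10239, 11151 and 9221 TPM with DMSO, 11822, 12492 and 14672 with ABA, 8649, 6936 and 6110.3 with 3'-propyl ABA, and 13729, 14629 and 14508 with 3'-butyl ABA. Every 3'-propyl ABA library was below, and every ABA and 3'-butyl ABA library above, the DMSO range, with changes of 0.35 ± 0.12, -0.51 ± 0.12 and 0.49 ± 0.12 for ABA, the propyl and the butyl compound. The ABA call of LHCB1.3 was lost without ABA replicate 3 (adjusted p = 0.114) and without DMSO replicate 3 (0.122). LHCB1.1 (AT1G29920, chr1:10474656-10475969) was at 2757, 2913 and 2406 TPM with DMSO, 3374, 3637 and 4468 with ABA, 3006, 2487 and 1873 with 3'-propyl ABA, and 4242, 4524 and 4445 with 3'-butyl ABA. Its 3'-propyl ABA libraries spanned the DMSO range, and its change was 0.50 ± 0.15 with ABA and 0.71 ± 0.15 with 3'-butyl ABA. The ABA call of LHCB1.1 was lost without DMSO replicate 3 or ABA replicate 3 (adjusted p = 0.071 each), and the 3'-butyl ABA call of LHCB1.2 without DMSO replicate 3 (0.056).

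**Figure D3:**
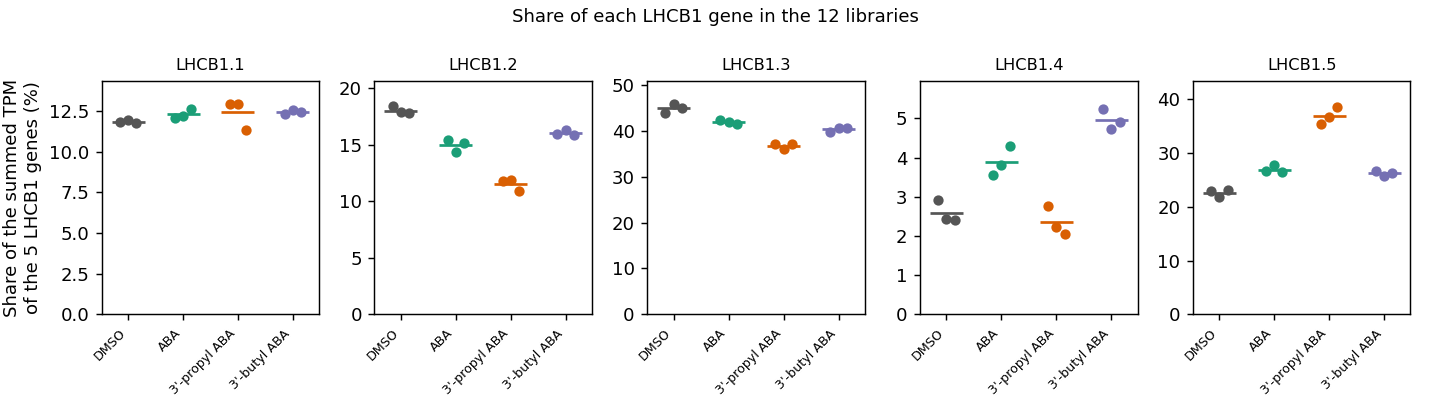
Share of each LHCB1 gene in the summed TPM of the 5 LHCB1 genes (vertical axes in percent, each from 0) in the 4 treatments; each point is 1 library and each line the mean of 3. With 3'-propyl ABA the share of LHCB1.5 was 35.4% to 38.7%, above the 21.9% to 23.1% of the DMSO libraries, and that of LHCB1.2 was 10.9% to 11.8%, below their 17.8% to 18.4%.

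As the plot of LHCB1 shares shows, the 5 copies did not hold constant shares of the LHCB1 message pool. LHCB1.5 made up 22.7 ± 0.638% of it with DMSO, 26.9 ± 0.738% with ABA, 36.9 ± 1.64% with 3'-propyl ABA and 26.3 ± 0.472% with 3'-butyl ABA (SD, n = 3). LHCB1.3 made up 44.9 ± 0.913%, 41.9 ± 0.427%, 36.8 ± 0.559% and 40.3 ± 0.472% in the same order. LHCB1.4 accounted for 2.58 ± 0.283%, 3.89 ± 0.382%, 2.35 ± 0.360% and 4.97 ± 0.260%. The ratio of LHCB1.5 to LHCB1.2 was 1.25, 1.23 and 1.302 in the DMSO libraries, 1.73, 1.94 and 1.75 with ABA, 2.998, 3.11 and 3.55 with 3'-propyl ABA, and 1.68, 1.58 and 1.66 with 3'-butyl ABA. No 2 treatments overlapped in this ratio, which is a description with no test. How the authors' counting treated reads shared by copies is not known, and 100-nt reads could be shared. The coding sequences of LHCB1.1, LHCB1.2 and LHCB1.3 are 95.6% to 96.4% identical, with identical mRNA runs of up to 119 nt, and LHCB1.4 and LHCB1.5 share a run of 122 nt at 91.4% identity. Between LHCB1.5 and LHCB1.2, which moved apart with 3'-propyl ABA, identity is 90.4% and the longest identical run 41 nt.

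LHCB2 encodes the other phosphorylated trimer protein, and with ABA and with 3'-butyl ABA its 3 genes gave the largest increases of the set along with LHCB1.4. LHCB2.3 (AT3G27690, chr3:10255906-10257489) was at 119, 87.5 and 95.9 TPM with DMSO, 169.8, 189.5 and 212 with ABA, 107, 51.0 and 44.4 with 3'-propyl ABA, and 370.3, 335 and 360.1 with 3'-butyl ABA. The 3'-butyl ABA libraries were the highest, the ABA libraries came next, and 3'-propyl ABA replicate 1 lay among the DMSO libraries while the other 3'-propyl ABA libraries lay below them. LHCB2.3 changed by 0.92 ± 0.27 with ABA (adjusted p = 0.0171), 1.82 ± 0.27 with 3'-butyl ABA (adjusted p = 0.000261) and -0.67 ± 0.27 with 3'-propyl ABA (adjusted p = 0.048). The last call was lost in most alternatives, with an adjusted p of 0.177 without 3'-propyl ABA replicate 3 and 0.142 without DMSO replicate 1, and the ABA call was lost without ABA replicate 3 (0.056). LHCB2.1 was at 859.8, 821 and 716 TPM with DMSO, 1308, 1429 and 1587 with ABA, 1256, 945 and 814 with 3'-propyl ABA, and 1848, 1898 and 1924 with 3'-butyl ABA. Its ABA and 3'-butyl ABA libraries did not overlap DMSO, and it rose by 0.85 ± 0.13 and 1.25 ± 0.13. LHCB2.2 was at 957, 885 and 763 TPM with DMSO, 1387, 1456 and 1724 with ABA, 1042, 760.0 and 678 with 3'-propyl ABA, and 1948, 1939.6 and 1976 with 3'-butyl ABA. It rose by 0.81 ± 0.14 with ABA and 1.18 ± 0.14 with 3'-butyl ABA, and both LHCB2.1 (0.31 ± 0.13) and LHCB2.2 (-0.09 ± 0.14) were not called with 3'-propyl ABA, where LHCB2.1 was called higher with median-of-ratios scaling (adjusted p = 0.009). LHCB2.1 and LHCB2.2 are 96.6% identical in coding sequence, with an identical run of 152 nt, so their separate values are uncertain, whereas LHCB2.3 is at most 85.5% identical to them. LHCB3, the single-copy trimer protein, was at 2070.1, 2235 and 1888 TPM with DMSO, 2581, 2614 and 3128 with ABA, 1807, 1411 and 1105 with 3'-propyl ABA, and 3371, 3390.3 and 3349 with 3'-butyl ABA. The 4 treatments did not overlap for LHCB3, which changed by 0.42 ± 0.14, -0.54 ± 0.14 and 0.71 ± 0.14 with ABA, the propyl and the butyl compound, and its ABA call was lost without ABA replicate 3 (adjusted p = 0.107).

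Among the minor antenna genes of photosystem II, LHCB4.1, LHCB5 and LHCB6 fell with 3'-propyl ABA and rose with 3'-butyl ABA. LHCB5, which encodes the monomeric antenna protein next to the core, was at 2039.6, 1956 and 1793 TPM with DMSO, 2222, 2137 and 2422 with ABA, 1455, 1111 and 934 with 3'-propyl ABA, and 2936, 2899.6 and 2909 with 3'-butyl ABA. The 4 treatments did not overlap, with a fall of 0.75 ± 0.12 with 3'-propyl ABA (adjusted p = 0.000192), an increase of 0.60 ± 0.12 with 3'-butyl ABA (adjusted p = 0.00172) and a change of 0.23 ± 0.12 with ABA that was not called. LHCB6 was at 1835, 1830.2 and 1538 TPM with DMSO, 1933, 1927 and 2322 with ABA, 1309.8, 1114 and 898 with 3'-propyl ABA, and 2368, 2458 and 2418 with 3'-butyl ABA. It took the same order without overlap, at -0.66 ± 0.12 with 3'-propyl ABA and 0.48 ± 0.12 with 3'-butyl ABA. The 3 LHCB4 genes differed. LHCB4.1 was at 1567, 1707 and 1523 TPM with DMSO, 1665, 1664 and 1942 with ABA, 1159, 1108 and 953 with 3'-propyl ABA, and 1819, 1950.2 and 1928 with 3'-butyl ABA. Only its 3'-propyl ABA libraries lay below the others, with a change of -0.58 ± 0.09, and its increase of 0.25 ± 0.09 with 3'-butyl ABA was lost without DMSO replicate 3 (adjusted p = 0.099). LHCB4.2 was at 768, 734 and 643 TPM with DMSO, 982, 1022 and 1145 with ABA, 748, 549 and 478 with 3'-propyl ABA, and 1315, 1271 and 1331 with 3'-butyl ABA. It rose by 0.55 ± 0.13 with ABA and 0.87 ± 0.13 with 3'-butyl ABA and was not called with 3'-propyl ABA (-0.29 ± 0.13), so that its share of the summed LHCB4 TPM was 30.8 ± 1.75% with DMSO, 37.3 ± 0.548% with ABA, 35.1 ± 3.44% with 3'-propyl ABA and 40.7 ± 1.24% with 3'-butyl ABA. LHCB4.3 was rare, at 3.14, 4.68 and 3.14 TPM with DMSO, 6.18, 5.17 and 4.07 with ABA, 6.18, 4.57 and 5.17 with 3'-propyl ABA, and 5.56, 4.42 and 5.62 with 3'-butyl ABA. All 4 treatments overlapped, and its increase of 0.45 ± 0.18 with 3'-propyl ABA (adjusted p = 0.0393) was lost without 3'-propyl ABA replicate 1 (0.137), without DMSO replicate 1 (0.115) and without DMSO replicate 3 (0.124).

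LHCB7 (AT1G76570, chr1:28728998-28730851), a rarely expressed member of the LHCB family, was the only one of the 43 that was called higher with 3'-propyl ABA than with each of the other treatments. It was at 9.43, 6.43 and 7.49 TPM with DMSO, 11.1, 12.2 and 14.2 with ABA, 20.2, 21.7 and 16.2 with 3'-propyl ABA, and 13.5, 13.0 and 13.4 with 3'-butyl ABA. The 3'-propyl ABA libraries were the highest, the ABA and 3'-butyl ABA libraries overlapped, and the DMSO libraries were the lowest. LHCB7 rose by 1.22 ± 0.14 with 3'-propyl ABA (adjusted p = 6.98e-06), 0.62 ± 0.14 with ABA and 0.72 ± 0.14 with 3'-butyl ABA, and 3'-propyl ABA exceeded ABA by 0.59 ± 0.14 (adjusted p = 0.00485). These values rest on an estimated 60 to 163 reads per library, against 51302 to 129635 for LHCB1.3.

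With ABA and 3'-butyl ABA the photosystem I antenna genes rose, as did most of those of photosystem II, apart from LHCA5. With 3'-propyl ABA the calls were mixed in both antennas, and of the 15 LHCB genes 7 fell, 3 rose and 5 were not called. Of the 6 LHCA genes, 5 rose with ABA (22.0% of all genes) and 5 with 3'-butyl ABA (25.1%). With 3'-propyl ABA 3 fell (38.5%) and 1 rose (27.5%). LHCA1 was at 2114, 2111 and 1887 TPM with DMSO, 2546, 2669.7 and 3129 with ABA, 1978, 1624 and 1373 with 3'-propyl ABA, and 3274, 3297 and 3350.0 with 3'-butyl ABA. LHCA1 changed by 0.45 ± 0.12, -0.31 ± 0.12 and 0.70 ± 0.12 with ABA, the propyl and the butyl compound, and its 3'-propyl ABA libraries overlapped DMSO, where the call was lost without 3'-propyl ABA replicate 3 (adjusted p = 0.144) and with median-of-ratios scaling (0.22). LHCA3 was at 1788, 1792 and 1612 TPM with DMSO, 1955, 1973 and 2306 with ABA, 1573, 1364 and 1210.3 with 3'-propyl ABA, and 2279.6, 2401 and 2336 with 3'-butyl ABA. Its 3'-propyl ABA libraries were all below and its ABA and 3'-butyl ABA libraries all above DMSO, with changes of -0.33 ± 0.09, 0.26 ± 0.09 and 0.44 ± 0.09, of which the ABA call was lost without ABA replicate 3 (adjusted p = 0.134) and the 3'-propyl ABA call with median-of-ratios scaling (0.112). LHCA6, which with LHCA5 joins photosystem I to the NDH complex of cyclic electron flow, was at 63.6, 52.8 and 41.0 TPM with DMSO, 68.4, 61.9 and 81.2 with ABA, 38.5, 33.5 and 27.5 with 3'-propyl ABA, and 98.4, 93.8 and 92.9 with 3'-butyl ABA. Its 3'-butyl ABA libraries were the highest and its 3'-propyl ABA libraries the lowest, with changes of 0.87 ± 0.16 and -0.64 ± 0.16 (adjusted p = 0.000683 and 0.00347). The ABA libraries of LHCA6 overlapped the DMSO libraries. Its increase with ABA (0.43 ± 0.16, adjusted p = 0.0402) was lost in many alternatives. Among them were those without ABA replicate 3 (0.135), without DMSO replicate 3 (0.161), without DMSO replicate 2 (0.076) and with only the 6 ABA and DMSO libraries fitted (0.084). LHCA5 was at 68.6, 80.8 and 76.5 TPM with DMSO, 79.6, 78.5 and 94.9 with ABA, 102, 94.6 and 81.1 with 3'-propyl ABA, and 72.5, 82.1 and 85.3 with 3'-butyl ABA. It was the only LHCA gene to rise with 3'-propyl ABA (0.29 ± 0.11, adjusted p = 0.0273), a call lost without 3'-propyl ABA replicate 1 (0.111) and without DMSO replicate 1 (0.099). LHCA2 and LHCA4 rose with ABA (0.42 ± 0.11 and 0.50 ± 0.12) and 3'-butyl ABA (0.52 ± 0.11 and 0.75 ± 0.12), and were at -0.21 ± 0.11 and -0.11 ± 0.12 with 3'-propyl ABA, not called.

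Among the photosystem I subunits 4 of 12 (33.3%) rose with ABA, against 22.0% of all genes tested. With 3'-butyl ABA 9 rose (25.1% of all genes), and with 3'-propyl ABA 8 fell (38.5%). The family had the smallest median increases with ABA (0.20) and 3'-butyl ABA (0.29) of the 4 families, and a median of -0.38 with 3'-propyl ABA. PSAN, a lumenal subunit on the plastocyanin side, was at 790.1, 759 and 667 TPM with DMSO, 818, 778 and 892 with ABA, 561, 428 and 384 with 3'-propyl ABA, and 1063, 1044 and 1051 with 3'-butyl ABA. ABA overlapped DMSO, all 3'-butyl ABA libraries were above both and all 3'-propyl ABA libraries below, with changes of 0.51 ± 0.12 and -0.71 ± 0.12 (adjusted p = 0.00293 and 0.000174). PSAD2, a copy of the subunit that docks ferredoxin, was at 716, 662 and 602 TPM with DMSO, 891, 832 and 921 with ABA, 547, 393 and 373 with 3'-propyl ABA, and 1016, 1073 and 1069.5 with 3'-butyl ABA. The 4 treatments did not overlap, and PSAD2 changed by 0.42 ± 0.12 with ABA, -0.61 ± 0.12 with 3'-propyl ABA and 0.68 ± 0.12 with 3'-butyl ABA. The other copy, PSAD1, fell with 3'-propyl ABA (-0.57 ± 0.09) but was at 0.15 ± 0.09 and 0.16 ± 0.09 with ABA and 3'-butyl ABA, not called, and the share of PSAD2 in their sum was 29.3 ± 1.403% with DMSO and 37.2 ± 0.625% with 3'-butyl ABA.

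PSAG, PSAH1 and PSAK had the smallest opposite changes of the PSA genes. PSAG was at 2123, 2243 and 2034 TPM with DMSO, 2229.9, 2179 and 2466 with ABA, 1828, 1519 and 1435 with 3'-propyl ABA, and 2348, 2553 and 2593 with 3'-butyl ABA. PSAH1, a copy of the subunit at which mobile antenna docks, was at 385, 419.6 and 378 TPM with DMSO, 445, 424 and 495 with ABA, 355, 336 and 297 with 3'-propyl ABA, and 436, 459.7 and 480.3 with 3'-butyl ABA. PSAK, which lies beside the LHCA belt, was at 1541, 1533 and 1367 TPM with DMSO, 1687, 1708 and 2005 with ABA, 1374, 1206 and 981 with 3'-propyl ABA, and 1859, 1983 and 1911 with 3'-butyl ABA. With 3'-propyl ABA they fell by 0.43 ± 0.09, 0.26 ± 0.08 and 0.33 ± 0.11. With 3'-butyl ABA they rose by 0.23 ± 0.09, 0.22 ± 0.08 and 0.37 ± 0.11 (adjusted p = 0.0475, 0.0399 and 0.0127). The 3'-butyl ABA calls of PSAG and PSAH1 were lost with median-of-ratios scaling (adjusted p = 0.063 and 0.059) and without DMSO replicate 1 (0.083 and 0.087). Only PSAK overlapped between 3'-propyl ABA and DMSO. PSAF, the plastocyanin docking subunit, and PSAH2 fell with 3'-propyl ABA (-0.64 ± 0.10 and -0.70 ± 0.10) and were not called with ABA (0.10 ± 0.10 and 0.06 ± 0.10) or 3'-butyl ABA (0.21 ± 0.10 and 0.17 ± 0.10). PSAE1, PSAL and PSAO rose with ABA (0.27 ± 0.09, 0.28 ± 0.09 and 0.38 ± 0.11) and 3'-butyl ABA (0.31 ± 0.09, 0.27 ± 0.09 and 0.52 ± 0.11), and PSAE2 rose with 3'-butyl ABA (0.33 ± 0.09). These 4 genes were between -0.22 and -0.15 with 3'-propyl ABA, not called. Without DMSO replicate 3, PSAD2, PSAE1, PSAL and PSAO lost the ABA call (adjusted p from 0.052 to 0.126) and PSAE1, PSAG, PSAH1, PSAK and PSAL the 3'-butyl ABA call (0.055 to 0.148). PSAH1 and PSAK lost the 3'-propyl ABA call without 3'-propyl ABA replicate 3 (0.059 and 0.08) and with median-of-ratios scaling (0.25 and 0.153).

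Of the 10 photosystem II subunit genes, 7 rose with ABA (22.0% of all genes), 9 rose with 3'-butyl ABA (25.1%) and 6 fell with 3'-propyl ABA (38.5%). The oxygen-evolving complex, the lumenal proteins that shield the manganese cluster, is encoded by PSBO, PSBP and PSBQ. PSBO1 was at 1668, 1769 and 1568 TPM with DMSO, 2055, 2071 and 2277 with ABA, 1570.1, 1333 and 1175 with 3'-propyl ABA, and 2405, 2505 and 2546 with 3'-butyl ABA. It changed by 0.36 ± 0.09, -0.30 ± 0.09 and 0.58 ± 0.09 with ABA, the propyl and the butyl compound, and only its 3'-propyl ABA replicate 1 reached the DMSO range. Its less abundant copy PSBO2 rose by 0.61 ± 0.11 with ABA and 0.90 ± 0.11 with 3'-butyl ABA and was at -0.04 ± 0.11 with 3'-propyl ABA, not called. PSBP1 was at 1510.2, 1506 and 1372 TPM with DMSO, 1789, 1720.3 and 1929 with ABA, 1212, 945 and 828 with 3'-propyl ABA, and 2166, 2143 and 2171 with 3'-butyl ABA. PSBQ2 was at 795, 807 and 738 TPM with DMSO, 972, 936 and 1001 with ABA, 647, 519.8 and 457 with 3'-propyl ABA, and 1118, 1154 and 1162 with 3'-butyl ABA. For both, the 4 treatments did not overlap, and they fell with 3'-propyl ABA by 0.57 ± 0.11 and 0.54 ± 0.10 and rose with 3'-butyl ABA by 0.56 ± 0.11 and 0.55 ± 0.10. PSBQ1 (AT4G21280, chr4:11334352-11335815) was at 811, 802 and 739.5 TPM with DMSO, 778, 716 and 842 with ABA, 528, 445 and 384 with 3'-propyl ABA, and 778, 833 and 844 with 3'-butyl ABA. Only the 3'-propyl ABA libraries stood apart, below all others, at -0.80 ± 0.10 (adjusted p = 1.72e-05), against -0.01 ± 0.10 with ABA and 0.06 ± 0.10 with 3'-butyl ABA. PSBQ1 made up 50.1 ± 0.324% of the summed PSBQ TPM with DMSO, 44.5 ± 1.16% with ABA, 45.6 ± 0.595% with 3'-propyl ABA and 41.7 ± 0.558% with 3'-butyl ABA.

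Among the remaining subunits, PSBX and PSBY encode small membrane subunits. PSBX was at 1793, 1942 and 1673 TPM with DMSO, 1961, 1974 and 2336 with ABA, 1517, 1319.9 and 1135 with 3'-propyl ABA, and 2081, 2238 and 2227 with 3'-butyl ABA. PSBY was at 795, 889.8 and 794 TPM with DMSO, 916, 885 and 1015 with ABA, 662, 625 and 556 with 3'-propyl ABA, and 897, 968 and 1002 with 3'-butyl ABA. They fell with 3'-propyl ABA by 0.45 ± 0.10 and 0.43 ± 0.08, below all DMSO libraries. With 3'-butyl ABA they rose by 0.28 ± 0.10 and 0.21 ± 0.08 (adjusted p = 0.0402 and 0.0475). These 3'-butyl ABA calls were lost with median-of-ratios scaling (adjusted p = 0.051 and 0.074) and without DMSO replicate 1 (0.072 and 0.116). PSBR, PSBS (the sensor protein of heat dissipation) and PSBW rose with ABA (0.38 ± 0.08, 0.38 ± 0.11 and 0.43 ± 0.10) and 3'-butyl ABA (0.43 ± 0.08, 0.39 ± 0.11 and 0.52 ± 0.10). With 3'-propyl ABA they were at 0.14 ± 0.08, 0.02 ± 0.11 and -0.07 ± 0.10, and none was called. Without DMSO replicate 3, PSBP1, PSBQ2 and PSBS lost the ABA call (adjusted p from 0.051 to 0.117) and PSBX and PSBY the 3'-butyl ABA call (0.141 and 0.142). PSBO1 lost the 3'-propyl ABA call without 3'-propyl ABA replicate 3 (0.052) and with median-of-ratios scaling (0.162).

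Set against ABA at the same dose and time, 3'-propyl ABA gave lower levels of nearly the whole set. It was lower than ABA for 39 of the 43 genes, higher for LHCB7 alone, and LHCB1.5, LHCB4.3 and LHCA5 were not called. The median difference was -0.66, against 26.4% of all genes tested that were lower, 15.5% that were higher and a median of -0.10. All 12 PSA and all 10 PSB genes were among the 39. For 39 genes every 3'-propyl ABA library was below every ABA library (31.9% of all genes), and for 1 every library was above (19.5%). The largest differences were in LHCB2.3 (-1.59 ± 0.27, adjusted p = 0.000984), LHCB1.4 (-1.40 ± 0.22, adjusted p = 0.000594), LHCA6 (-1.07 ± 0.16, adjusted p = 0.000247) and LHCB1.2 (-1.04 ± 0.14, adjusted p = 0.000127). In LHCB1.5 the difference was -0.21 ± 0.10, with a 95% interval from -0.43 to 0.01.

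The butyl compound did not differ from ABA by this test in any of the 43 genes. Higher and lower calls were 0 and 0, where 0.819% and 0.783% of all genes tested were called higher and lower, and the lowest adjusted p among the 43 was 0.128. At an unadjusted p under 0.05, 13 of the 43 were higher with 3'-butyl ABA (8.98% of all genes) and 0 were lower (8.35%). The point estimates were above 0 for 41 genes, with a median of 0.14 (0.01 over all genes), and in 18 of the 43 every 3'-butyl ABA library was above every ABA library, against 13.6% of all genes. The median 95% interval reached 0.24 to either side, and 33 of the 43 intervals lay within a 1.5-fold difference in both directions. The widest exception was LHCB2.3, at 0.90 ± 0.27 with an interval from 0.30 to 1.50. It was one of 3 genes, with LHCB5 and PSAN, called when only the 6 libraries of both treatments were fitted (adjusted p = 0.0162, 0.0394 and 0.0475) or when 3'-propyl ABA replicate 1 was left out.

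**Figure D4:**
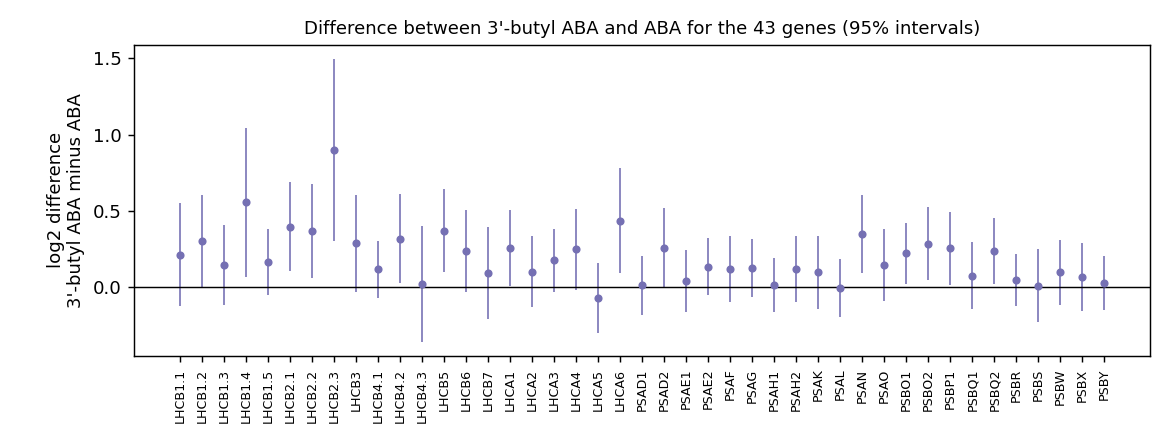
Difference between 3'-butyl ABA and ABA on the log2(TPM + 1) scale (vertical axis) for the 43 genes (horizontal axis); points are estimates and bars 95% intervals from limma. Of the 43 points, 41 lie above 0, and the largest is LHCB2.3 at 0.90.

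As the plot of the differences between 3'-butyl ABA and ABA shows, the interval of LHCB1.4 ran from 0.07 to 1.04, whereas in PSBS (0.01 ± 0.11) it ran from -0.23 to 0.25. A missed threshold does not show that the compounds act alike, and the intervals give the differences that these libraries leave possible. The propyl and butyl compounds, which differ in the length of the chain at the 3' position, differed in 41 of the 43 genes. Levels were higher with 3'-butyl ABA for 40 genes and lower for LHCB7, and LHCB4.3 and LHCA5 were not called, against 31.2% of all genes tested that were higher and 17.6% that were lower. The median difference was 0.85 (0.13 over all genes). Every 3'-butyl ABA library was above every 3'-propyl ABA library for 40 genes (39.8% of all genes) and below for 1 (22.1%). At least 2-fold higher with 3'-butyl ABA were 14 of the called genes, against 5.8% of all genes. LHCB2.3 differed by 2.49 ± 0.27 (adjusted p = 4.17e-05), LHCB1.4 by 1.95 ± 0.22 (adjusted p = 4.97e-05), LHCA6 by 1.50 ± 0.16 (adjusted p = 1.58e-05) and LHCB5 by 1.34 ± 0.12 (adjusted p = 5.66e-06). LHCB7 was at -0.50 ± 0.14 (adjusted p = 0.0111). All 6 comparisons of the 4 treatments were made for each gene, with p-values adjusted over genes within a comparison.

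Genes listed here as regulators, which include chlorophyll synthesis genes and a plastid sigma factor, did not form 1 pattern. Of 10 regulator genes, 5 rose and 2 fell with ABA, 5 rose and 3 fell with 3'-propyl ABA, and 6 rose and 2 fell with 3'-butyl ABA. Of all genes tested, 22.0% rose and 24.7% fell with ABA, 27.5% and 38.5% with 3'-propyl ABA, and 25.1% and 25.6% with 3'-butyl ABA. GLK1 and GLK2 encode a pair of related transcription factors that activate nuclear photosynthesis genes. GLK1 was at 74.8, 79.8 and 68.8 TPM with DMSO, 94.5, 88.8 and 97.2 with ABA, 67.5, 64.3 and 49.4 with 3'-propyl ABA, and 109, 116 and 103 with 3'-butyl ABA. It took the order of most photosystem genes, with changes of 0.33 ± 0.11, -0.31 ± 0.11 and 0.54 ± 0.11 for ABA, the propyl and the butyl compound, and it was -0.63 ± 0.11 with 3'-propyl ABA relative to ABA (adjusted p = 0.000513). GLK2 was at 51.2, 48.1 and 42.7 TPM with DMSO, 53.1, 56.0 and 61.8 with ABA, 108, 107 and 96.4 with 3'-propyl ABA, and 58.0, 63.5 and 61.1 with 3'-butyl ABA. Every 3'-propyl ABA library was above every other library of GLK2, with changes of 1.12 ± 0.08 against DMSO (adjusted p = 1.48e-07) and 0.85 ± 0.08 against ABA (adjusted p = 1.11e-05). SIG5, a sigma factor of the plastid RNA polymerase, rose by 1.44 ± 0.10, 3.05 ± 0.10 and 1.51 ± 0.10 with ABA, the propyl and the butyl compound. CAO, the enzyme that makes chlorophyll b, was at 64.0, 62.3 and 53.8 TPM with DMSO, 81.8, 86.5 and 104 with ABA, 95.9, 91.2 and 76.8 with 3'-propyl ABA, and 132, 126 and 126 with 3'-butyl ABA. It rose with all 3 compounds and was the one gene of the regulator and chloroplast lists called between 3'-butyl ABA and ABA (0.49 ± 0.11, adjusted p = 0.0423). Of the marker lists, AT1G22690 (-1.15 ± 0.23, adjusted p = 0.0425) and EPF2 (-0.58 ± 0.13, adjusted p = 0.0496) were lower with 3'-butyl ABA than with ABA. CGA1, a GATA factor of chloroplast development, fell by 1.22 ± 0.23, 1.38 ± 0.23 and 1.26 ± 0.23.

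**Figure D5:**
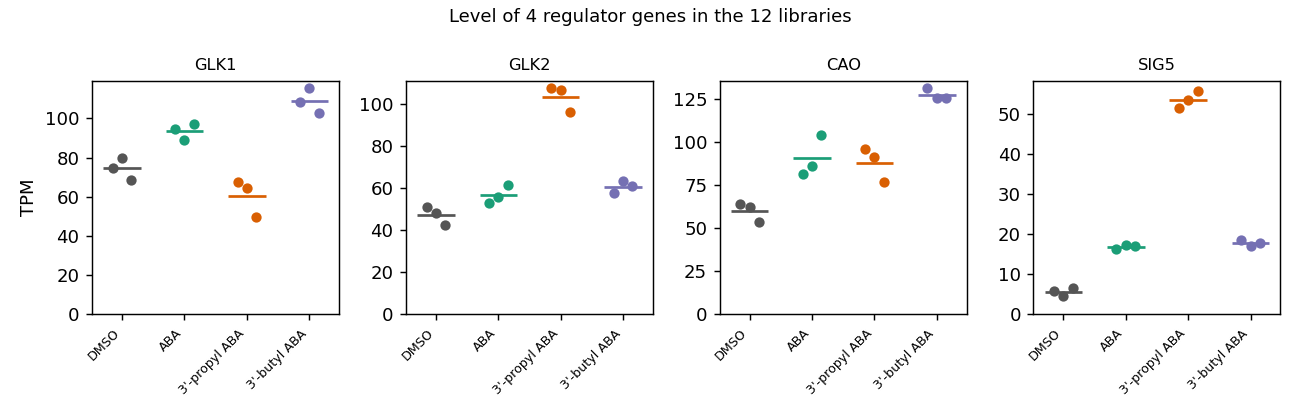
TPM (vertical axes, each from 0) of GLK1, GLK2, CAO and SIG5 in the 4 treatments; each point is 1 library and each line the mean of 3. GLK2 and SIG5 are highest with 3'-propyl ABA, where GLK1 is lowest.

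The plot of regulator levels shows GLK1 and GLK2 in opposite order with 3'-propyl ABA. Other chloroplast genes gave 3 kinds of result. Genes for inserting antenna proteins and assembling the photosystems fell with 3'-propyl ABA in 13 of 13 cases (38.5% of all genes). With ABA 1 rose and 5 fell (22.0% and 24.7% of all genes), and with 3'-butyl ABA 1 rose and 7 fell (25.1% and 25.6%). CPSRP43, a chaperone that carries LHC proteins to the thylakoid, was at -0.74 ± 0.11 with 3'-propyl ABA (adjusted p = 7.06e-05), -0.06 ± 0.11 with ABA and -0.09 ± 0.11 with 3'-butyl ABA. Y3IP1, a photosystem I assembly factor, fell by 0.38 ± 0.08, 0.86 ± 0.08 and 0.42 ± 0.08 with ABA, the propyl and the butyl compound. PSB27, a photosystem II assembly and repair factor, was the gene of this list that rose with ABA (0.29 ± 0.10) and 3'-butyl ABA (0.58 ± 0.10).

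Of 14 electron transport and ATP synthase genes, 6 rose and 0 fell with ABA (22.0% and 24.7% of all genes) and likewise with 3'-butyl ABA (25.1% and 25.6%). With 3'-propyl ABA 4 rose and 7 fell (27.5% and 38.5%). PETE2, the main plastocyanin gene, was at 1356, 1356 and 1252 TPM with DMSO, 1315, 1288 and 1447 with ABA, 833, 748 and 633 with 3'-propyl ABA, and 1421, 1546 and 1513 with 3'-butyl ABA. Only 3'-propyl ABA lay below the rest, at -0.85 ± 0.09 (adjusted p = 3.69e-06). PGRL1B, a gene of cyclic electron flow, was at 21.7, 24.0 and 20.8 TPM with DMSO, 45.5, 50.4 and 53.3 with ABA, 64.0, 71.7 and 62.7 with 3'-propyl ABA, and 41.2, 41.1 and 40.6 with 3'-butyl ABA. It rose with all 3 compounds, by 1.13 ± 0.08, 1.54 ± 0.08 and 0.86 ± 0.08. Of 6 further nuclear genes related to PSB subunits, 3 of them (PNSL1, PNSL2 and PNSL3) for lumenal subunits of the NDH complex, 1 rose with ABA, 5 fell and 1 rose with 3'-propyl ABA, and 3 rose with 3'-butyl ABA. PNSL3 was at 21.9, 18.6 and 15.5 TPM with DMSO, 15.6, 12.4 and 16.3 with ABA, 6.84, 4.25 and 3.42 with 3'-propyl ABA, and 18.2, 17.2 and 21.5 with 3'-butyl ABA. It fell by 1.78 ± 0.20 with 3'-propyl ABA (adjusted p = 5.59e-06). PSBP2, a rare relative of PSBP1, was at 0.777, 0.258 and 0.601 TPM with DMSO, 2.29, 3.41 and 2.05 with ABA, 5.02, 2.08 and 2.47 with 3'-propyl ABA, and 5.98, 4.54 and 6.12 with 3'-butyl ABA. It rose by 1.21 ± 0.25, 1.39 ± 0.25 and 2.09 ± 0.25 on the log2(TPM + 1) scale, where changes of so low a gene are understated.

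Genes of the LHC-like and photoprotection lists went both ways between 3'-propyl ABA and ABA, where 15.5% of all genes tested were higher and 26.4% were lower. Of 8 LHC-like and stress-related genes, 2 were higher with 3'-propyl ABA than with ABA (ELIP1 and OHP2) and 2 were lower (LIL3.1 at -0.67 ± 0.10 and LIL3.2 at -0.38 ± 0.07). Of 5 genes listed under state transitions and photoprotection, 2 were higher (ZEP and STN7) and 2 were lower, namely STN8, a thylakoid protein kinase (-0.48 ± 0.08), and VDE1, which converts violaxanthin to zeaxanthin (-0.42 ± 0.09). ELIP1, an early light-induced relative of the LHC proteins, was at 2.27, 2.90 and 2.93 TPM with DMSO, 8.51, 8.25 and 5.24 with ABA, 25.0, 18.9 and 33.3 with 3'-propyl ABA, and 12.2, 9.54 and 10.2 with 3'-butyl ABA. It rose by 1.15 ± 0.20, 2.82 ± 0.20 and 1.65 ± 0.20, and 3'-propyl ABA exceeded ABA by 1.67 ± 0.20 (adjusted p = 5.8e-05). Against DMSO, 3 of the 8 rose and 1 fell with ABA, 3 rose and 2 fell with 3'-propyl ABA, and 3 rose and 1 fell with 3'-butyl ABA. For all genes tested these shares were 22.0% and 24.7%, 27.5% and 38.5%, and 25.1% and 25.6%. LIL3.1, which holds chlorophyll synthesis enzymes in the membrane, fell by 0.45 ± 0.10, 1.12 ± 0.10 and 0.56 ± 0.10 with ABA, the propyl and the butyl compound. Of the 5 genes listed under state transitions and photoprotection, 3, 3 and 4 rose with ABA, the propyl and the butyl compound, and 0, 2 and 0 fell. ZEP, which converts zeaxanthin to violaxanthin and so also supplies ABA synthesis, was at 53.5, 53.9 and 57.7 TPM with DMSO, 137, 148 and 134 with ABA, 227, 229.9 and 236 with 3'-propyl ABA, and 159, 146 and 155 with 3'-butyl ABA. It rose by 1.33 ± 0.06, 2.05 ± 0.06 and 1.46 ± 0.06, and 3'-propyl ABA exceeded ABA by 0.72 ± 0.06 (adjusted p = 4.52e-06). STN7, the kinase that phosphorylates the antenna in state transitions, rose by 0.59 ± 0.08, 0.99 ± 0.08 and 0.58 ± 0.08.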

How the data were processed

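The authors deposited TPM values of 27655 genes, 1 column for each library, made from strand-specific poly(A) libraries sequenced in pairs of 100 nt per the labels. TAIR10 and bcl2fastq are named in the submitters' processing notes. Which aligner, counter and gene models were used was not given in the sources used here. TPM do not state depth, so it was estimated from the steps between low values: 1 read per kb of gene corresponded to 0.130 to 0.169 TPM, 99.3% to 99.7% of low values lay within 0.02 of a whole read, and the 16747 genes with a single transcript held an estimated 4.97 to 6.42 M reads (M, mega) per library. This covers counting error only.

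Values were transformed as log2(TPM + 1), a pseudocount of 1 that understates changes of low genes, and 19528 genes averaging 1 TPM or more across all 12 libraries entered 1 fit with limma 3.58.1 (R 4.3.3; lmFit and robust eBayes with a trend; 8 residual degrees of freedom and a median prior of 4.05). The test was checked on simulated data. The 43 genes, the other gene and marker lists and the tests were chosen with earlier results of these data known. Values in every library are given for up to 4 genes per direction and comparison with the largest called changes without overlap, for genes called in opposite directions by a pair of compounds, and for paralog groups with such calls. Of pathway lists up to 3 genes per comparison were named, and GLK1 and GLK2 always. Alternatives were a pseudocount of 0.1, no filter, other scalings, a replicate block, only the 6 libraries compared and each library left out. Plastid-encoded genes were not used here. Promoter sequences and coordinates are from RefSeq TAIR10.1.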

Additional observations from a re-analysis of the deposited data

How the results depend on the processing

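Under the alternatives, 216 to 258 of the 258 gene-level values (43 genes, 6 comparisons) kept their call (higher, lower or not called) in each setting with all libraries. A value not called in both fits counted as kept even where its sign changed. A pseudocount of 0.1 changed no call. The labels do not say whether replicate numbers pair the libraries. Correlations of same-numbered deviations ran from -0.168 to 0.329, and those of replicate 1 were all positive, from 0.115 to 0.329. Whether replicate 1 shared a batch was not tested. With the replicate block 26 genes rose with ABA, 24 fell with 3'-propyl ABA and 33 rose with 3'-butyl ABA, where PSAG, PSAH1, PSBX and PSBY were no longer called.

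Leaving out 1 library gave 13 to 30 genes higher with ABA (26 in the full fit; 13 without DMSO replicate 3, 17 without ABA replicate 3), 2 to 5 higher with 3'-propyl ABA (4; 2 without DMSO replicate 1 or 3'-propyl ABA replicate 1), 19 to 32 lower with 3'-propyl ABA (24), 28 to 38 higher with 3'-butyl ABA (37), 0 to 3 higher with 3'-butyl ABA than with ABA (0; 3 without 3'-propyl ABA replicate 1), and 1 to 2 lower with 3'-butyl ABA than with 3'-propyl ABA (1; 2 without 3'-propyl ABA replicate 3). Fitting only the 6 libraries compared gave 3 higher with 3'-butyl ABA than with ABA, and median-of-ratios scaling gave 2 lower with 3'-butyl ABA than with 3'-propyl ABA. An alternative chosen after seeing the data, without DMSO replicate 1 and ABA replicate 3 together, gave 17 higher with ABA. With quantile normalization 18 rose with ABA and 28 with 3'-butyl ABA, and 3 called values reversed sign without a call: PSAG (-0.064) and PSAL (-0.006) with 3'-butyl ABA, and LHCB1.5 between 3'-butyl ABA and 3'-propyl ABA (-0.20). That setting gives the top-ranked gene of every library the same value, so LHCB1.3, the top gene of all DMSO, ABA and 3'-butyl ABA libraries, has a difference of 0 among these by construction, while its 3'-propyl ABA comparisons kept their calls. Values in this setting depend on rank within a library. LHCB1.5 lay above LHCB1.3 in 3'-propyl ABA replicates 2 (7063 against 6936 TPM) and 3 (6373 against 6110.3 TPM), and below it in every 3'-butyl ABA library. The cause of the shifts other than that of LHCB1.3 was not tested. Calls that held in all 19 settings were 8 of 26 with ABA, 16 of 24 lower and 2 of 4 higher with 3'-propyl ABA, 23 of 37 with 3'-butyl ABA, 36 of 39 lower for 3'-propyl ABA against ABA and 37 of 40 for 3'-butyl ABA against 3'-propyl ABA. Shares of all genes called under the alternatives are not given here, so none of these counts has a background beside it.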
